A study of Mus musculus with 40 samples.

Results

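The p53 pathway was followed through 10 genes in mouse oocytes and early embryos that had or lacked TDP-43, an RNA- and DNA-binding protein encoded by Tardbp (Tdp43). The genes were Trp53, which encodes p53 itself, and 9 genes known as its targets, Mdm2, Cdkn1a, Ccng1, Gadd45a, Bax, Ei24, Aen, Trp53inp1 and Rrm2b. They were listed by name, and all 10 were present among the 24056 genes of the deposited expression table, which covers 24 RNA-seq libraries in 12 groups of 2. Tdp43 oKO samples came from females of genotype Tdp43 flox/flox;Zp3-Cre, whose Cre is driven by an oocyte promoter, and control samples came from Tdp43 flox/flox females without Cre, so that both carried the floxed alleles. Both were collected as full-grown oocytes (FGO, 48 h after PMSG), MII oocytes (13 h after HCG), late 1-cell embryos (1C, 30 h after HCG), early 2-cell embryos (E2C, 36 h) and late 2-cell embryos (L2C, 48 h). The females were 7 to 8 weeks old, of a mixed C57BL/6J and ICR background, and embryos were fathered by normal ICR males, so an oKO embryo still received an intact paternal Tdp43 allele. In a separate experiment, 1-cell embryos were injected with Trim21 mRNA and an antibody against TDP-43, which directs the protein to degradation (Trim-away KD), or with Trim21 mRNA and IgG (injection control, NC), and were cultured to L2C. The titles and the genotype labels of these 4 libraries contradict each other: the libraries titled KD carry the genotype WT and those titled NC the knockdown genotype. They are grouped here by title. Tardbp mRNA cannot settle this, because Trim-away removes protein. Of the 2-cell genes, looked at after their values were seen, Zscan4d was at 181 and 159 FPKM in the libraries titled KD, against 37.4 and 53.4 FPKM in NC, and at 58.6 and 60.5 FPKM in oKO L2C, against 8.09 and 12.1 FPKM in control. Zfp352 was at 52.8 and 48.6 FPKM in the libraries titled KD, against 14.5 and 28.0 FPKM in NC, and at 90.3 and 76.3 FPKM in oKO L2C, against 15.7 and 10.4 FPKM in control. With the titles, both genes were thus called higher in KD as in oKO, and comparisons of the 10 genes that rest on these libraries are also given with the titles exchanged.

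In unstressed cells p53 is made and destroyed continuously, since Mdm2, itself a transcriptional target of p53, binds p53 and marks it for degradation. When DNA is damaged or ribosome assembly is disturbed, p53 escapes Mdm2 and activates genes for cell cycle arrest, DNA repair, nucleotide supply and cell death. Messenger RNA levels of p53 targets are therefore often read together, but several of these genes are also driven by other factors, and an oocyte carries stored mRNA from its growth phase. Transcription of the embryo's own genome starts in the mouse late in the 1-cell stage and becomes strong in late 2-cell embryos.

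Values are FPKM, fragments scaled by transcript length and by the mapped fragments of each library. The number of fragments behind a value is unknown, so no counting error can be given, and with 2 libraries a group no exact permutation test of one gene can give a p below 0.333. Differences were therefore tested with limma on log2(FPKM + 1), a scale that understates changes of genes with low values, and a gene was called when its adjusted p was at most 0.05 and its change at least 2-fold. Nothing says that the 2 libraries of a group came from separate animals, so the p-values measure only the spread between these libraries. Where genes with an unadjusted p under 0.05 or without overlap are counted, the share over all genes was not computed. Such counts therefore do not set the members apart from other genes.

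The targeted transcript followed the genotype labels. Tardbp was at 0.903 and 0.989 FPKM in oKO 1C embryos, against 17.5 and 16.1 FPKM in control 1C embryos, and was called lower in oKO at all 5 stages, with log2 differences of -2.32 in FGO, -1.98 in MII, -3.19 in 1C, -1.22 in E2C and -1.39 in L2C (-0.80 in L2C after median-ratio scaling, no longer called). Markers of oocytes and 2-cell embryos summed to 4808 FPKM or more in every library. The 12 blood and immune markers summed to 203.1 FPKM in 1 control 1C library, to 104.2 to 234.5 FPKM in the 4 injected libraries, mostly from Hba-a1 and Hba-a2, and to 56.5 FPKM or less elsewhere. Cumulus and granulosa markers summed to 25.6 FPKM or less, male germ markers to 35.9 FPKM or less, and oviduct markers to 137.0 FPKM or less, highest in oKO FGO and MII. In oKO FGO most of that sum was Dcpp3, at 114 and 118 FPKM, against 20.7 and 17.7 FPKM in control. Dcpp1 and Dcpp2 were lower in oKO FGO than in control, while in oKO MII all 3 were higher. The part of these markers in any result was not tested. Each library pools whole oocytes or embryos, so fewer embryos with a transcript and less of it in each cannot be told apart. The oKO L2C libraries stood apart in scale. Their FPKM totalled 124265 and 126713, against 209102 and 215926 in control L2C, and the median log2 difference of all genes tested was -0.79 between them. Each difference in L2C is therefore also given after every library was scaled by median ratios, which leaves a median of -0.19.

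In control samples 8 of the 10 genes fell into 3 courses. Trp53, Mdm2, Rrm2b and Trp53inp1 were present from FGO onwards, and of these Mdm2 alone was called higher from E2C to L2C. FPKM cannot tell stored maternal mRNA from newly made mRNA in embryos. Cdkn1a was close to 0 through the 1-cell stage and first appeared in E2C. Ei24, Gadd45a and Aen were low until the late 2-cell stage, and Bax and Ccng1 belonged to none of these.

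Trp53 itself was highest in MII oocytes. Its control levels were 6.24 and 6.13 FPKM in FGO, 14.8 and 9.59 in MII, 5.38 and 8.85 in 1C, 2.88 and 3.83 in E2C and 3.45 and 3.62 FPKM in L2C. None of its 4 stage steps was called at the 2-fold threshold, although MII was above FGO by 0.85 on the log2 scale (SE 0.23, adjusted p = 0.00268). Ordered by mean over all 12 groups, Trp53 ran between 12.2 ± 3.65 FPKM in control MII and 1.69 ± 0.457 FPKM in oKO L2C (SD, n = 2 each), and the libraries of neighbouring groups overlapped everywhere except below oKO MII, below control FGO and below oKO FGO. The 6 lowest groups were the E2C and L2C groups, injected embryos included.

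Mdm2, the ubiquitin ligase of p53, was more abundant than Trp53 in every group. It stood at 16.9 and 18.4 FPKM in control FGO, 30.2 and 32.1 in MII, 16.9 and 13.9 in 1C, 7.31 and 7.85 in E2C and 25.3 and 18.4 FPKM in L2C. The deposited level was thus lowest in E2C and was followed by a higher level in L2C, the step that was called (log2 difference 1.39, SE 0.25, adjusted p = 4.9e-05). The differences of 1C from MII (-0.98) and of E2C from 1C (-0.93) stayed just under 2-fold. After scaling 1C was called lower than MII (-1.06), while E2C and 1C differed by -0.0083.

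Cdkn1a, the cyclin-dependent kinase inhibitor p21 and the best known p53 target, was under 1 FPKM in every oocyte and 1C library. In control embryos it measured 0.0448 and 0.677 FPKM in 1C, 6.76 and 6.62 FPKM in E2C and 6.43 and 2.24 FPKM in L2C. E2C was thus clearly apart from 1C (log2 difference 2.54, SE 0.37, adjusted p = 9.4e-06, and 3.06 after scaling). The 2 control L2C libraries differed widely from each other, and the step into L2C was not called (-0.65, adjusted p = 0.134), but it was called lower, at -1.25, without control L2C library 1. Between 1C and E2C the median of all genes moved by -0.72, a sign opposite to that of Cdkn1a.

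Ei24, an endoplasmic reticulum protein first described as induced by p53, made the largest step of the 10. It measured 2.23 and 2.19 FPKM in control E2C and 46.1 and 48.1 FPKM in control L2C, and was between 1.76 and 4.50 FPKM in the earlier control libraries. Gadd45a, a growth arrest and DNA damage protein, measured 2.37 and 0.928 FPKM in control E2C and 15.5 and 25.1 FPKM in L2C, and Aen, an apoptosis-enhancing nuclease, 0.449 and 0.373 FPKM in E2C and 3.96 and 3.61 FPKM in L2C. All 3 were called higher in L2C than in E2C, by 3.90 (SE 0.24, adjusted p = 1.5e-10), 3.02 (SE 0.33, adjusted p = 1.5e-07) and 1.76 (SE 0.23, adjusted p = 1.3e-06) on the log2 scale. With Mdm2 and Bax, 5 of the 10 members were called higher at this step and none lower, where 39.7% of the 8183 genes tested were called higher and the median of all genes was 0.53. The same 5 were called after scaling, which also put Rrm2b among the lower genes (-1.22). In the mm9 annotation Ei24 overlaps a long noncoding gene on the other strand by 3516 bases, and Gadd45a overlaps another by 859 bases. Whether the counting kept strand is not given in the sources used here.

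Bax, which permeabilises mitochondria in apoptosis, went down and up along the same series. Its control levels were 14.6 and 10.0 FPKM in FGO, 2.26 and 1.89 in MII, 4.95 and 9.73 in 1C, 2.81 and 2.77 in E2C and 8.26 and 8.56 FPKM in L2C. It was the 1 member called lower in MII than in FGO (-2.09, SE 0.23, adjusted p = 1.5e-07) of 8 tested, where 27.9% of all genes were called lower, and after scaling it was joined by Rrm2b (1.14) and Trp53 (1.00), both higher in MII. It was also the 1 member of 7 called higher in 1C than in MII (1.38, SE 0.23, adjusted p = 6.5e-05), against 14.4% of all genes. That call was lost without control 1C library 2 (0.95). At the step from 1C to E2C, Bax was called lower (-1.08, SE 0.31, adjusted p = 0.00542) and Cdkn1a higher, 2 of 8 members tested, where 45.6% of all genes were called in either direction. The lower Bax was not called after scaling (-0.26), nor without control 1C library 2 (-0.65) or without either control E2C library (-1.08 and -1.07).

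Rrm2b, the p53-inducible subunit of ribonucleotide reductase, and Trp53inp1, a p53-induced nuclear protein, were among the most abundant members before the late 2-cell stage. Rrm2b was at 49.1 and 48.1 FPKM in control MII and 50.6 and 44.2 FPKM in 1C, and at 19.4 and 18.6 FPKM in L2C. It overlaps an annotated pseudogene on its own strand by 466 bases. Trp53inp1 lay between 11.1 and 26.4 FPKM in the 10 control libraries of the 5 stages. Ccng1, the p53 target cyclin G1, was under 2 FPKM in every library but 1, library 2 titled KD, with 3.43 FPKM.

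**Figure D1:**
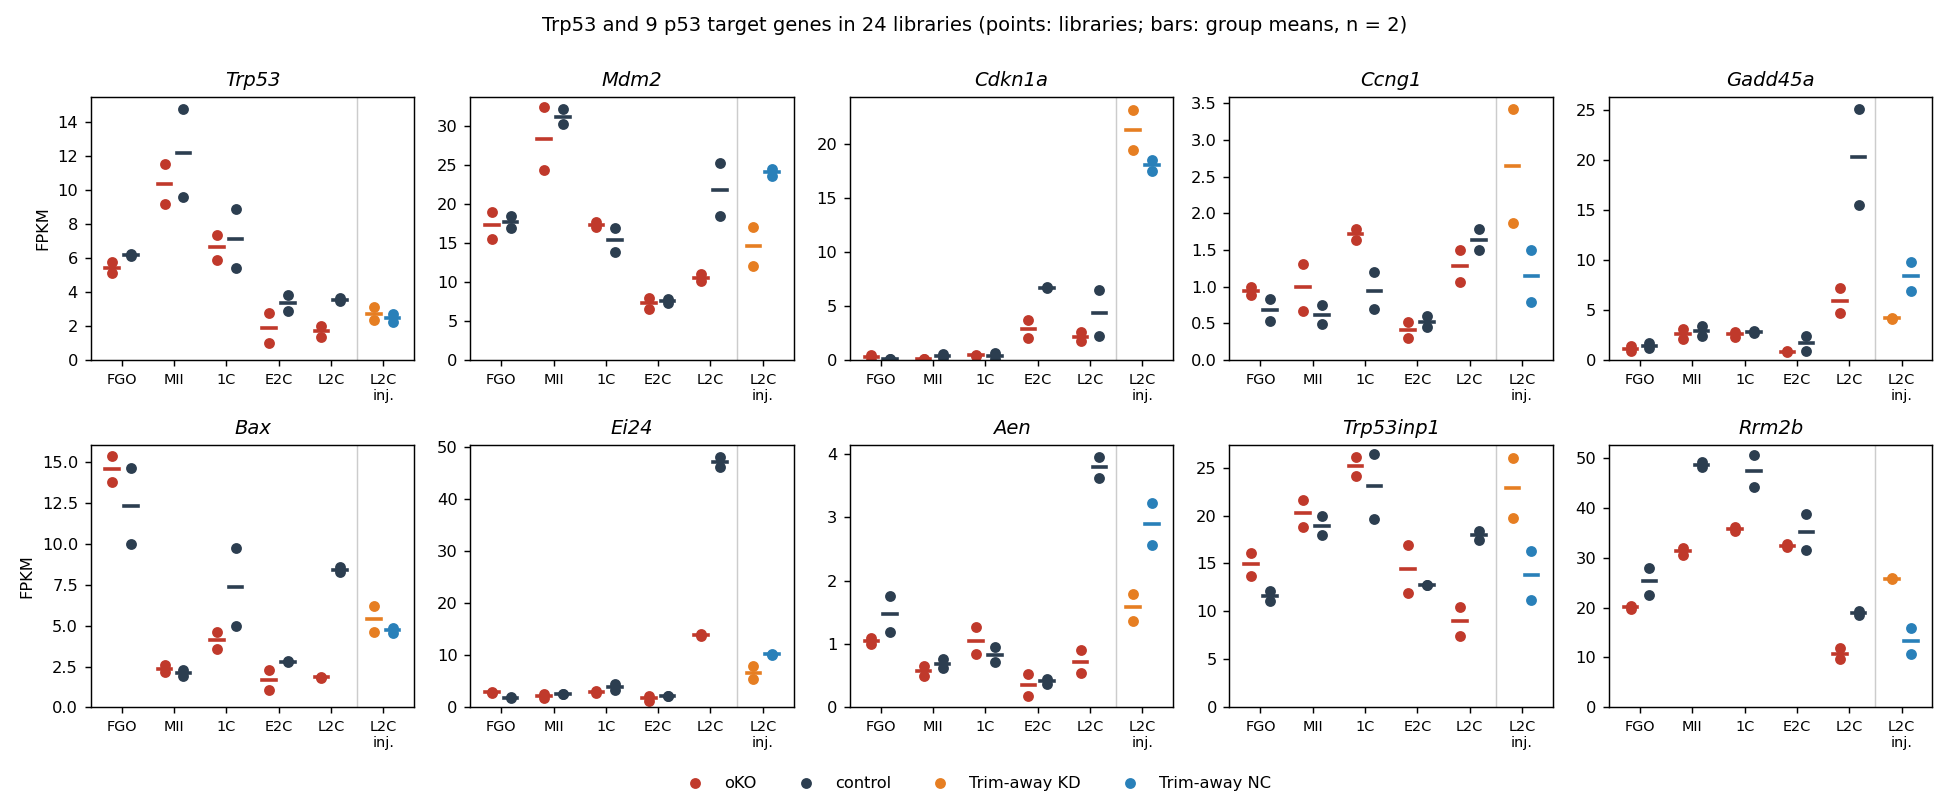
FPKM (vertical axes, a linear scale of its own for each gene, starting at 0) of the 10 genes in the 24 libraries, by stage, with the injected L2C embryos to the right of the grey line; points are libraries and bars are means of 2. Cdkn1a lies near 0 until E2C, Ei24, Gadd45a and Aen stand out in control L2C, and the 2 injected groups hold the highest Cdkn1a.

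**Figure D2:**
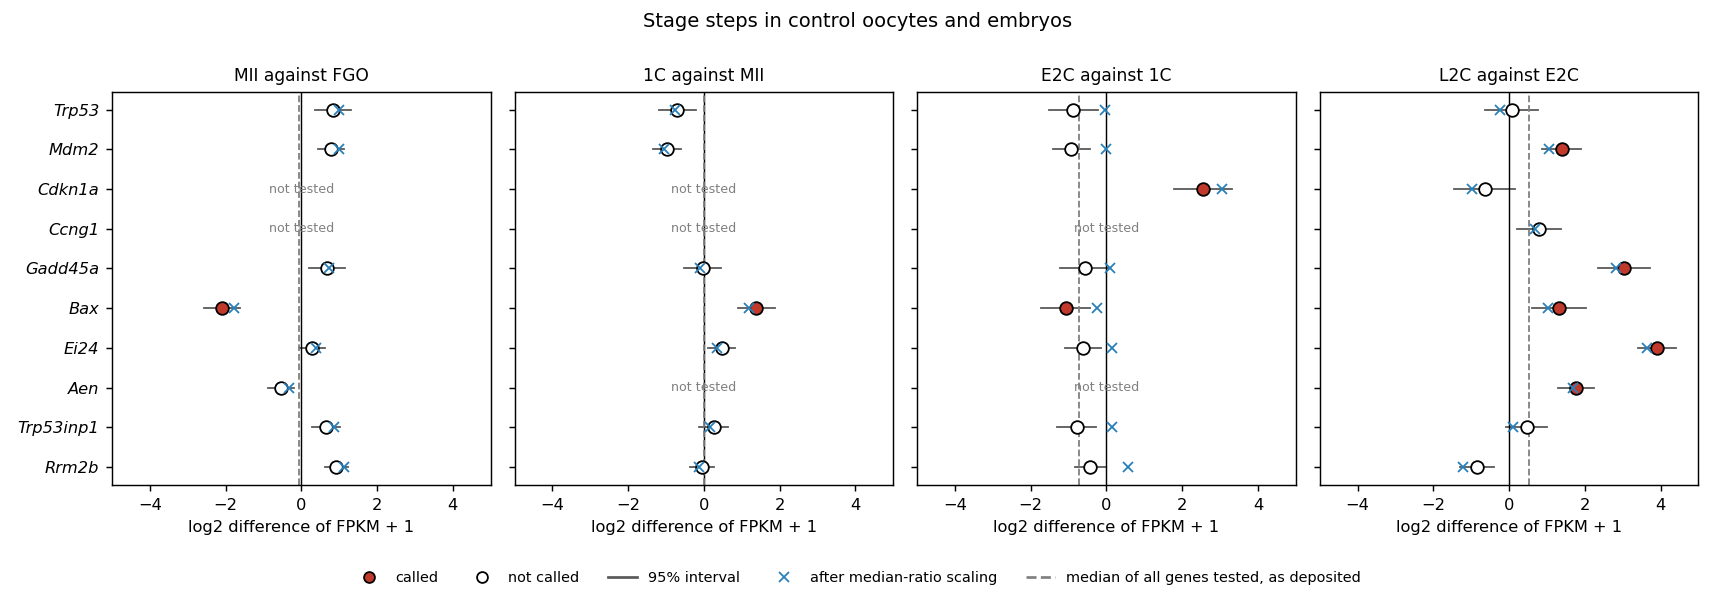
Log2 difference of FPKM + 1 (horizontal axes) between neighbouring stages in control samples, the later stage minus the earlier, with 95% intervals from limma; filled circles are called, crosses give the value after median-ratio scaling, and dashed lines mark the median of all genes tested. Ei24 at 3.90 and Gadd45a at 3.02 are farthest right in the step into L2C, and Cdkn1a at 2.54 in the step into E2C.

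The sequence around the gene starts of the members was searched for the p53 response element, a pair of adjoining half-sites of 10 bases that each hold 3 purines, a C, 2 bases that are A or T, a G and 3 pyrimidines. The search took windows of 3000 bases on each side of the annotated gene start in mm9, allowed no spacer, required the C and the G of both half-sites and allowed up to 2 mismatches in the other positions, the A or T bases between them included. The element reads alike on both strands, so a hit counts for either. At most 1 mismatch was found in 2 of the 10 members, Cdkn1a and Ccng1, and in 0.965% of the 22380 protein-coding windows, and at most 2 mismatches in 3 of 10, with Bax as the third, and in 5.94% of the windows. The 4 hits are printed because they are the only stretches of the 10 windows that pass this rule, with the C and G of each half-site in capitals.
Cdkn1a, chr17:29227873-29227892, 42 bases before the gene start, plus strand: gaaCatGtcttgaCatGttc
Ccng1, chr11:40568964-40568983, 161 bases before the gene start, written on the strand of the gene, minus: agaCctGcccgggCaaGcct
Ccng1, chr11:40568438-40568457, 365 bases past the gene start in an intron, minus: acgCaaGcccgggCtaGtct
Bax, chr7:52721944-52721963, 314 bases past the gene start in an annotated exon, minus: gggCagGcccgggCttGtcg
A match describes letters and not binding, and a window without one says nothing about p53 at that gene. The distances are from the most upstream annotated start of each gene. From the start of another annotated transcript the Cdkn1a hit lies at -7270 bases, and the 2 Ccng1 hits at -1534 and -1008 bases. Cdkn1a and Ccng1, which hold the hits of 1 mismatch, had unlike levels, since Cdkn1a reached 23.2 FPKM and Ccng1 no more than 3.43 FPKM in any library.

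In oocytes and 1C embryos no member was called between oKO and control. In FGO 8 members were tested and 0 called, where 3.02% of all genes were called, and 2 had an unadjusted p under 0.05. In MII 7 were tested and 0 called, against 5.57% of all genes, with 1 unadjusted p under 0.05, and in 1C 8 were tested and 0 called, against 4.15%, with 3 unadjusted p under 0.05. Cdkn1a and Ccng1 in FGO, Cdkn1a, Aen and Ccng1 in MII, and Cdkn1a and Aen in 1C were below the mean of 1 FPKM required for a test. Trp53 was at 11.5 and 9.17 FPKM in oKO MII, against 14.8 and 9.59 FPKM in control MII, with overlapping libraries (log2 difference -0.19, 95% interval -0.69 to 0.30). Mdm2 was at 19.0 and 15.5 FPKM in oKO FGO, against 16.9 and 18.4 FPKM in control FGO, also overlapping (-0.04, -0.39 to 0.31). Libraries did not overlap for Trp53 in FGO, at 5.74 and 5.09 FPKM in oKO against 6.24 and 6.13 FPKM in control (-0.16, -0.63 to 0.30). Nor did they for Mdm2 in 1C, at 17.7 and 17.0 FPKM in oKO against 16.9 and 13.9 FPKM in control (0.17, -0.20 to 0.54). In FGO, MII and 1C alike, the intervals of Trp53 and Mdm2 mRNA included 0. The member nearest to a call was Rrm2b, at 32.0 and 30.6 FPKM in oKO MII, against 49.1 and 48.1 FPKM in control MII. Its log2 difference of -0.62 (SE 0.15, adjusted p = 0.00828) was under 2-fold. Bax in 1C was at 3.59 and 4.61 FPKM in oKO, against 4.95 and 9.73 FPKM in control (-0.65, adjusted p = 0.0643), and was called lower, at -1.08, without control 1C library 1, the library that also held the 203.1 FPKM of blood and immune markers.

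In E2C, where Cdkn1a first appears, no member was called either. Of 8 tested, 0 were called and 1 had an unadjusted p under 0.05, where 10.2% of all genes were called. Aen and Ccng1 were too low to test. Cdkn1a was at 2.02 and 3.67 FPKM in oKO E2C, against 6.76 and 6.62 FPKM in control E2C, and the libraries did not overlap (log2 difference -1.04, SE 0.46, adjusted p = 0.153). Trp53 was at 0.996 and 2.77 FPKM in oKO, against 2.88 and 3.83 FPKM in control (-0.66, adjusted p = 0.300). In both genes oKO library 1 was the lower one, and without oKO library 2 both were called lower, Cdkn1a at -1.35 and Trp53 at -1.12. Mdm2, at 6.56 and 7.96 FPKM in oKO against 7.31 and 7.85 FPKM in control, and Rrm2b, at 32.6 and 32.2 FPKM in oKO against 31.5 and 38.7 FPKM in control, overlapped between the groups.

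In L2C, 4 of the 10 members were called lower in oKO embryos and none higher. They were Ei24, Bax, Gadd45a and Aen, and the control step from E2C to L2C, in which they measured 3.90, 1.31, 3.02 and 1.76, shares the control L2C libraries. Ei24 was at 13.6 and 14.1 FPKM in oKO L2C, against 46.1 and 48.1 FPKM in control L2C (-1.70, SE 0.23, adjusted p = 3.8e-06). Bax was at 1.79 and 1.87 FPKM in oKO, against 8.26 and 8.56 FPKM in control (-1.73, SE 0.32, adjusted p = 1.0e-04). These levels of Ei24 in oKO were still above every E2C library, whereas those of Bax lay within the range of the E2C libraries. Gadd45a was at 4.71 and 7.16 FPKM in oKO, against 15.5 and 25.1 FPKM in control (-1.60, SE 0.30, adjusted p = 1.4e-04). Aen was at 0.912 and 0.536 FPKM in oKO, against 3.96 and 3.61 FPKM in control (-1.48, SE 0.21, adjusted p = 7.0e-06). In all 4 genes both oKO libraries lay below both control libraries, but so they did in Mdm2, Trp53, Trp53inp1 and Rrm2b, which were not called. The share of all genes for which this holds was not computed.

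A share of 4 in 10 was close to that of the whole table, in which 40.6% of the 7760 genes tested were called lower. The median log2 difference of the 10 members was -0.96, beside -0.79 for all genes. After median-ratio scaling 2 members stayed called, Bax (-1.16) and Aen (-1.10), where 18.4% of all genes were called lower, and the medians were -0.20 for the members and -0.19 for all genes. Ei24 and Gadd45a were then just under 2-fold (-0.92 and -0.88).

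The other 6 members were not called in oKO L2C. Mdm2 was at 10.1 and 11.0 FPKM in oKO, against 25.3 and 18.4 FPKM in control (-0.97, SE 0.23, adjusted p = 0.00107), and Trp53 at 2.01 and 1.37 FPKM in oKO, against 3.45 and 3.62 FPKM in control (-0.76, SE 0.31, adjusted p = 0.0381). Trp53inp1 was at 7.42 and 10.5 FPKM in oKO, against 17.5 and 18.4 FPKM in control (-0.94, SE 0.24, adjusted p = 0.00180), and Rrm2b at 9.63 and 11.8 FPKM in oKO, against 19.4 and 18.6 FPKM in control (-0.78, SE 0.19, adjusted p = 0.00174). These 4 had adjusted p-values under 0.05 and differences under 2-fold, close to the median of all genes, and after scaling they were at -0.20, -0.20, -0.19 and -0.01. Mdm2 was called lower without control library 2 (-1.19) and without oKO library 2 (-1.02), and Trp53inp1 without oKO library 2 (-1.17). Cdkn1a, at 2.57 and 1.74 FPKM in oKO against 6.43 and 2.24 FPKM in control, overlapped between the groups (-0.65, 95% interval -1.39 to 0.09) and was called lower, at -1.25, without control library 2. Ccng1, at 1.50 and 1.06 FPKM in oKO against 1.49 and 1.78 FPKM in control, also overlapped, with a log2 difference of -0.21 as deposited and 0.31 after scaling. No member was thus called higher in oKO at any stage at which it was tested, as deposited or after scaling. Cdkn1a, Aen and Ccng1 were each untested at some stages. Of all genes, 152 of 8919 were called higher in oKO FGO. In oKO L2C the share was 6.75% as deposited and 14.8% after scaling, so a count of 0 among so few members says little.

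**Figure D3:**
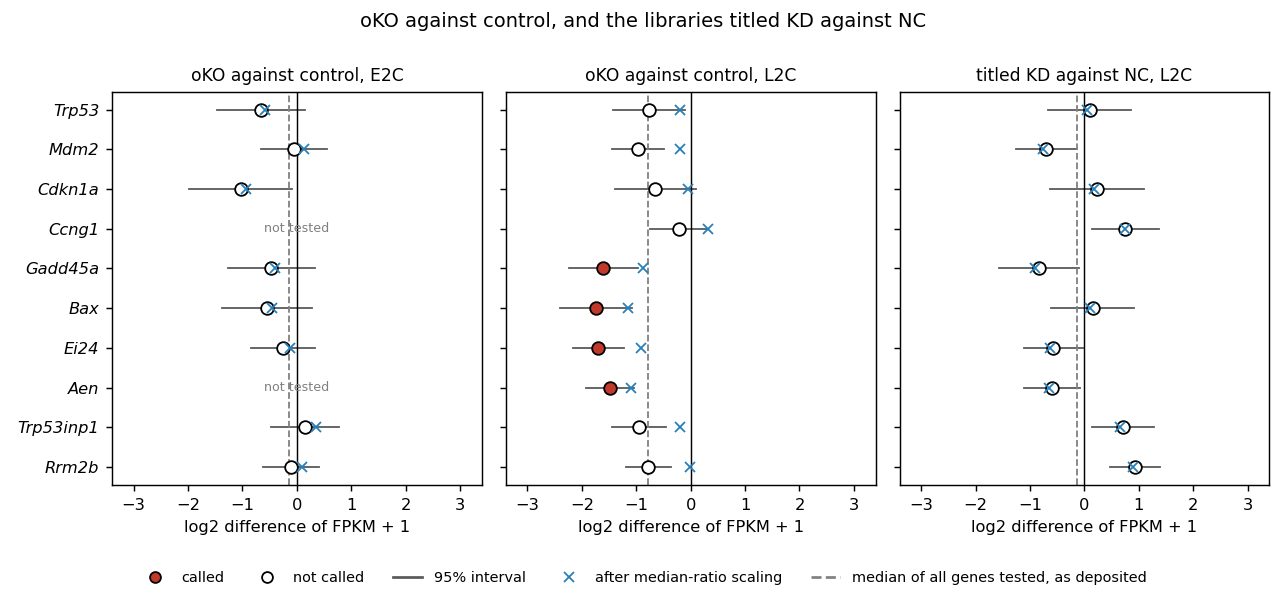
Log2 difference of FPKM + 1 (horizontal axes) for oKO against control in E2C and L2C and for the libraries titled KD against NC in L2C, with 95% intervals from limma; filled circles are called, crosses give the value after median-ratio scaling, and dashed lines mark the median of all genes tested. In oKO L2C all 10 circles lie left of 0 and 4 are filled, while the crosses of Mdm2, Trp53, Trp53inp1 and Rrm2b lie between -0.20 and -0.01.

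The oKO difference was itself compared between L2C and E2C in the same model. Of 9 members tested, 3 were called, all with a lower value in L2C, where 28.8% of all genes were called lower and the median of all genes was -0.50. They were Ei24 (-1.45, SE 0.35, adjusted p = 0.00301), Aen (-1.41, SE 0.33, adjusted p = 0.00236) and Trp53inp1 (-1.09, SE 0.37, adjusted p = 0.0232). After scaling the call of Aen alone was left (-1.07). In E2C, Aen was at 0.449 and 0.373 FPKM in control and at 0.184 and 0.531 FPKM in oKO, too low to be tested there. At such levels log2(FPKM + 1) leaves little room for a difference, so the value of Aen mostly repeats that of L2C. The call of Trp53inp1 was lost without any one of 6 of the 8 libraries compared, those being every one but oKO E2C library 1 and oKO L2C library 2, the smallest difference being -0.86 without oKO E2C library 2. Without oKO E2C library 1, 5 members were called, Mdm2 (-1.03) and Bax (-1.53) being added.

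When TDP-43 protein was targeted by Trim-away, no member was called between the libraries titled KD and NC. All 10 were tested and 0 called, where 15.4% of the 8100 genes tested were called, and 7 members had an unadjusted p under 0.05. Neither this count nor the lack of overlap given below can be set against the whole table, whose shares were not computed. Total FPKM was 236616 and 259394 in the libraries titled KD and 307468 and 330831 in NC, yet the median of all genes was close to 0 (-0.13, and -0.18 after scaling). Rrm2b came nearest, at 25.9 and 25.7 FPKM in KD, against 10.7 and 15.9 FPKM in NC (0.93, SE 0.22, adjusted p = 0.00548), and was called higher, at 1.20, without NC library 2. Mdm2 was at 12.1 and 17.1 FPKM in KD, against 24.5 and 23.6 FPKM in NC (-0.71, adjusted p = 0.0540). Aen was at 1.36 and 1.79 FPKM in KD, against 3.22 and 2.57 FPKM in NC (-0.59, adjusted p = 0.0772). In Rrm2b, Mdm2 and Aen the libraries of the 2 groups did not overlap, with Rrm2b above NC and the other 2 below. Gadd45a, at 4.14 and 4.20 FPKM in KD against 9.82 and 6.92 FPKM in NC, and Ei24, at 5.43 and 7.85 FPKM in KD against 10.1 and 10.3 FPKM in NC, lay below NC in both libraries. Trp53inp1, at 19.7 and 26.0 FPKM in KD against 11.2 and 16.3 FPKM in NC, lay above NC. Ccng1, at 1.86 and 3.43 FPKM in KD against 0.784 and 1.50 FPKM in NC (0.75, SE 0.29, adjusted p = 0.0629), and Cdkn1a, at 23.2 and 19.4 FPKM in KD against 17.5 and 18.5 FPKM in NC (0.22, adjusted p = 0.719), were above NC in both libraries as well. Trp53 (2.35 and 3.08 FPKM in KD, 2.70 and 2.24 FPKM in NC) and Bax (4.59 and 6.19 FPKM in KD, 4.57 and 4.86 FPKM in NC) overlapped between the groups. Blood and immune markers summed to 218.5 and 234.5 FPKM in KD and to 104.2 and 130.2 FPKM in NC, and whether they bear on these values was not tested.

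The effects of the 2 experiments were compared with each other in the same model, a comparison chosen after the values had been seen. The oKO effect minus the KD effect was called for 4 of 10 members, all lower, where 23.5% of all genes were called lower and the median of all genes was -0.62. They were Bax (-1.88, SE 0.48, adjusted p = 0.00780), Rrm2b (-1.71, SE 0.29, adjusted p = 5.4e-04), Trp53inp1 (-1.65, SE 0.36, adjusted p = 0.00281) and Ei24 (-1.13, SE 0.34, adjusted p = 0.0199). After scaling 0 of the 10 were called, with 4 called as deposited and 6 of unadjusted p under 0.05. Without KD library 2 the count was 2, the calls of Bax and Ei24 being lost, and that of Ei24 was lost as well without either control L2C library. These calls rest on the titles of the injected libraries. With the genotype labels in place of the titles, 5 members were called lower, Gadd45a (-2.44), Ei24 (-2.27), Aen (-2.08), Mdm2 (-1.67) and Bax (-1.58), while Trp53inp1 (-0.24) and Rrm2b (0.16) were not called. That exchange turns the sign of every difference between KD and NC, lists of other genes included, and none of the 10 members was called there either way.

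The injected NC embryos and the uninjected floxed controls were both L2C at 48 h, and 3 of the 10 members were called between them, where 22.4% of all genes were called. Cdkn1a was at 17.5 and 18.5 FPKM in NC, against 6.43 and 2.24 FPKM in floxed control L2C (1.95, SE 0.38, adjusted p = 6.0e-04). With the 23.2 and 19.4 FPKM of the libraries titled KD, the 4 injected libraries held the highest Cdkn1a of all 24. Ei24 was at 10.1 and 10.3 FPKM in NC, against 46.1 and 48.1 FPKM in floxed controls (-2.10, SE 0.24, adjusted p = 4.1e-06), and Gadd45a at 9.82 and 6.92 FPKM in NC, against 15.5 and 25.1 FPKM in floxed controls (-1.16, SE 0.32, adjusted p = 0.00850). Of these targets, p21 was thus higher and Ei24 and Gadd45a lower in NC. All 3 calls held after scaling (2.09, -1.99 and -1.05), but that of Gadd45a was lost without control library 2 (-0.83) and without NC library 2 (-0.94). With the genotype labels in place of the titles the same 3 were called in the same directions, Cdkn1a at 2.18, Ei24 at -2.67 and Gadd45a at -2.004. Mdm2, at 24.5 and 23.6 FPKM in NC against 25.3 and 18.4 FPKM in floxed controls, and Trp53, at 2.70 and 2.24 FPKM in NC against 3.45 and 3.62 FPKM in floxed controls, were not called. Injection, IgG, Trim21, culture, genotype and collection cannot be told apart in this comparison, and blood and immune markers summed to 104.2 and 130.2 FPKM in NC, against 28.5 and 37.1 FPKM in floxed controls.

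Genes that act on p53 were examined as a list of 26 regulators, and among those called in oKO L2C the largest difference was that of Usp10. In oKO L2C, 5 of 16 tested were called lower and 0 higher, beside 40.6% and 6.75% of all genes (median -0.72, beside -0.79 for all genes). The deubiquitinase Usp10, which removes ubiquitin from p53, was at 1.77 and 1.62 FPKM in oKO L2C, against 8.94 and 12.4 FPKM in control (-2.10, SE 0.26, adjusted p = 1.7e-06), and was the 1 regulator called after scaling (-1.55). It was also the 1 regulator of 16 called between KD, at 5.62 and 6.71 FPKM, and NC, at 15.4 and 12.1 FPKM (-1.03, SE 0.30, adjusted p = 0.0176). Of all genes 15.4% were called between KD and NC, so this count does not set the regulators apart. The acetyltransferase gene Ep300 (-1.31), the Cajal body gene Wrap53 (-1.25) and the deubiquitinase gene Usp7 (-1.23) were further regulators called lower in oKO L2C as deposited, and the fifth was the deacetylase gene Sirt1, named after its values were seen. Chek2, a kinase that phosphorylates p53 after DNA damage, was the 1 of 15 regulators called in oKO E2C, at 1.06 and 0.811 FPKM, against 5.11 and 4.56 FPKM in control (-1.59, SE 0.26, adjusted p = 3.8e-04). In that comparison 10.2% of all genes were called, so 1 of 15 is close to the share of the whole table. In oocytes 0 of 17 regulators in FGO and 0 of 16 in MII were called by limma, beside 3.02% and 5.57% of all genes. Unadjusted p was under 0.05 in 5 and 3 of the regulators. In 1C, where 4.15% of all genes were called, Usp2 was called lower (-1.19), though not after scaling (-0.97).

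Mdm4, the close relative of Mdm2 that also binds p53, was the most abundant of the pathway's regulators around the 2-cell stage. It was at 223 and 218 FPKM in control 1C, 756 and 769.6 FPKM in E2C and 118 and 118 FPKM in L2C, called higher from 1C to E2C (1.79, SE 0.16, adjusted p = 2.3e-08) and lower from E2C to L2C (-2.68, SE 0.16, adjusted p = 1.2e-10). NC embryos held 838 and 982 FPKM, against 118 and 118 FPKM in floxed controls of the same stage (2.93, SE 0.16, adjusted p = 1.4e-09), near the E2C level. Chek1, a checkpoint kinase, and Rchy1, a ubiquitin ligase of p53, were called lower from E2C to L2C in controls as well (-2.82 and -3.07).

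Of 8 ribosomal protein genes whose products are known to bind Mdm2, 7 were called lower in oKO L2C, as deposited and after scaling, beside 40.6% and 18.4% of all genes, with a median of -2.14 as deposited and -1.33 scaled, beside -0.79 and -0.19 for all genes. Rpl5 was at 44.3 and 40.4 FPKM in oKO L2C, against 167 and 201 FPKM in control, and Rpl11 at 65.3 and 58.9 FPKM in oKO, against 267 and 253 FPKM in control. In MII, 1C and E2C the direction of Rpl5 was the other one, with 139 and 147 FPKM in oKO MII, against 56.2 and 53.6 FPKM in control (1.37, SE 0.15, adjusted p = 3.4e-06), and it was called higher in 1C (1.50) and E2C (1.57) too. In FGO it was not called, at 668 and 666 FPKM in oKO, against 708 and 873 FPKM in control. Rpl23 was called lower in oKO E2C, at 14.6 and 10.8 FPKM in oKO, against 33.4 and 31.9 FPKM in control (-1.31, SE 0.27, adjusted p = 0.00305), so the list did not move one way there, with 2 of 8 called higher and 1 lower. Of all genes 10.2% were called in oKO E2C in either direction. Between KD and NC, 4 of the 8 were called lower, beside 7.99% of all genes, Rps14 (-1.27), Rpl23 (-1.27), Rpl5 (-1.14) and Rps3 (-1.06). Ribosomal protein genes have near-identical pseudogenes, between which reads may be split.

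Among 44 further p53 targets in the table, most were too low to test. In oKO L2C, 18 were tested, 4 called lower and 0 higher, beside 40.6% and 6.75% of all genes, with a median of -0.08, beside -0.79 for all genes. After scaling 2 were lower and 5 higher, beside 18.4% and 14.8% of all genes, with a median of 0.62, beside -0.19. The sign of the list's median thus turned with the scale, while the median lay above that of all genes both times. The 5 are not named, since genes were named by their calls as deposited. Apaf1, the scaffold of the apoptosome, was called lower in oKO at 4 of the 5 stages, with 1.40 and 0.822 FPKM in oKO MII against 3.48 and 4.85 FPKM in control (-1.29, SE 0.18, adjusted p = 5.3e-05), 0.816 and 0.773 FPKM in oKO 1C against 3.76 and 4.01 FPKM in control (-1.44), 2.27 and 1.75 FPKM in oKO E2C against 11.4 and 7.31 FPKM in control (-1.76) and 1.43 and 1.14 FPKM in oKO L2C against 4.36 and 4.22 FPKM in control (-1.21). The L2C call was not kept after scaling (-0.71), while those in MII, 1C and E2C were. In FGO it was at 0.624 and 0.589 FPKM in oKO, against 1.35 and 1.69 FPKM in control, and was not called. Gpx1, a glutathione peroxidase, was called higher in oKO FGO (1.72, SE 0.29, adjusted p = 6.5e-04), MII (1.75) and 1C (1.19), with 31.8 and 36.6 FPKM in oKO FGO against 11.3 and 8.19 FPKM in control. In L2C the metabolic regulator Tigar, listed under its clone name 9630033F20Rik (-1.98, SE 0.21, adjusted p = 2.6e-07), and the pro-apoptotic Cdip1 (-1.68, SE 0.27, adjusted p = 2.8e-05) were called lower in oKO. Between KD and NC 0 of 19 further targets were called, where 15.4% of all genes were called, with 4 of unadjusted p under 0.05.

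The BCL2 family and caspases, which carry out cell death, held genes called in both directions in oKO L2C. Of 16 tested, 6 were called lower and 1 higher, beside 40.6% and 6.75% of all genes, and 4 and 1 after scaling, beside 18.4% and 14.8%, so the shares were close to those of the whole table as deposited. The survival gene Mcl1 was at 6.26 and 6.05 FPKM in oKO L2C, against 25.6 and 28.7 FPKM in control (-1.98, SE 0.23, adjusted p = 7.7e-07). The pro-apoptotic Bid was at 1.40 and 1.23 FPKM in oKO, against 7.27 and 5.77 FPKM in control (-1.69, SE 0.18, adjusted p = 2.6e-07), and the pro-apoptotic Bad (-1.70) and the apoptosis inhibitor Birc6 (-1.79) were lower as well. Genes for survival and genes for death were therefore both among the lower ones. Mcl1 was also called lower in oKO E2C (-1.51) and between KD, at 6.09 and 6.31 FPKM, and NC, at 14.6 and 14.0 FPKM (-1.09, SE 0.26, adjusted p = 0.00607), where Birc6 was lower (-1.03) and Bcl2l10, an oocyte-enriched member of the family, was higher (1.32). Bcl2l10 was also the 1 gene of the list called higher in oKO L2C, at 83.6 and 110.1 FPKM in oKO, against 43.2 and 36.1 FPKM in control, a level named after its values were seen. At the 3 earlier stages 0 genes of this list were called between oKO and control by limma. Tested were 13 in FGO, 15 in MII and 15 in 1C, of which 2, 3 and 2 had an unadjusted p under 0.05. Of all genes 3.02%, 5.57% and 4.15% were called at these stages, so the counts of 0 do not set the list apart.

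For the 3 central genes, the courses most like theirs were sought over the 12 group means of log2(FPKM + 1) among 7381 genes. Trp53 was closest to Rragc (Pearson r = 0.983), Ipo8 (0.981) and Capn7 (0.981). Mdm2 was closest to Hnrnph3 (0.984), Morf4l1 (0.973) and Rrm2 (0.963), and Cdkn1a to Ddx43 (0.983), 1700069L16Rik (0.981) and Glul (0.977). None of the other 9 members was among the 3 nearest of any of these genes, which among 7381 genes says little about the members. Between the 3 central genes r was 0.67 for Trp53 with Mdm2, -0.72 for Trp53 with Cdkn1a and -0.26 for Mdm2 with Cdkn1a. The points share stages and libraries, and no test was made of these values.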

How the data were processed

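RNA was measured by Smart-seq2 in pools of oocytes or embryos. The authors trimmed the reads with Cutadapt and used HISAT2 for mapping to mm9 (per the methods). Versions in the submitters' notes are 2.1.2 for StringTie, 2.2.1 for HISAT2 and 0.6.6 for Trim Galore. The authors deposited FPKM for each gene and library. The lowest value above 0 is 1e-06, so whole reads could not be recovered and depth is unknown. The table lists 24085 genes, from which 27 with names turned into dates and 2 with no values were dropped. The 16 Stacc-seq samples were not analysed here.

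The study used a count test, which FPKM do not allow, and its thresholds were kept. In R 4.3.3, limma 3.58.1 fitted one model of 24 libraries and 12 groups on log2(FPKM + 1), with a variance trend, robust moderation and 1 weight for each collection (a stage, or the injected embryos). Genes with a mean of at least 1 FPKM in the compared libraries were tested, with Benjamini-Hochberg adjustment over all of them. The code was tested on simulated data. Stages of the controls were also compared, and NC with floxed controls. Alternatives were pseudocounts of 0.1 and 5, a minimum mean of 5 FPKM or none, median-ratio scaling, quantile normalization, no array weights, a fit of the compared libraries alone, no 2-fold threshold, a replicate block, leaving out each library and, chosen after the data were seen, the genotype labels of the injected libraries in place of their titles.

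The members and lists were chosen with earlier results of these data known. All members were named. Eligible besides were, per comparison, up to 4 called genes of each other list, those with the largest change and no overlap between groups. Not every eligible gene is printed for every comparison. For Trp53, Mdm2 and Cdkn1a the 3 genes of highest correlation with at least 5 FPKM in a group were named. Rpl11, and levels given beside a call at another stage, were added after values were seen. Response elements were searched in the mm9 genome with GENCODE gene starts.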

Additional observations from a re-analysis of the deposited data

Results flagged for a closer look

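The oKO difference was larger in L2C than in E2C for 3 members by the test of the difference itself. For Ei24 the difference between the 2 log2 differences was -1.45, made of -1.70 in L2C and -0.25 in E2C. For Aen it was -1.41, with -1.48 in L2C and a level too low to test in E2C, so it mostly repeats the L2C difference. For Trp53inp1 it was -1.09, made of -0.94 in L2C and 0.15 in E2C. The oKO L2C libraries had lower values over the whole table, and after median-ratio scaling these differences were -0.78, -1.07 and -0.54.

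The oKO effect and the effect between the libraries titled KD and NC differed for 4 members. For Bax the difference was -1.88, with -1.73 in oKO and 0.15 in KD, and for Rrm2b it was -1.71, with -0.78 in oKO and 0.93 in KD. For Trp53inp1 it was -1.65, with -0.94 in oKO and 0.70 in KD, and for Ei24 it was -1.13, with -1.70 in oKO and -0.57 in KD. After scaling the 4 differences were -1.27, -0.89, -0.84 and -0.29, and none was called. The titles and genotype labels of the injected libraries contradict each other, and with the genotype labels the same differences were -1.58 for Bax, 0.16 for Rrm2b, -0.24 for Trp53inp1 and -2.27 for Ei24. No group had the 4 libraries that a search for outlying samples needs.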

How the results depend on the processing

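Of the members' called differences, 2 changed sign, both in the oKO effect minus the KD effect when the injected libraries were grouped by genotype label in place of title, an alternative chosen after the data were seen: Rrm2b (0.16, and 0.88 with scaling) and, with scaling, Trp53inp1 (0.47). Ccng1, not called as reported, was then called higher with scaling (1.06). The counts of members called moved as follows. In oKO L2C, 4 as reported became 7 with a pseudocount of 0.1, 2 with a pseudocount of 5, 3 with a minimum of 5 FPKM, 2 after median-ratio scaling, 2 after quantile normalization and 8 with no 2-fold threshold, and 4 to 6 when single libraries were left out. In oKO FGO the count was 0 to 0 when single libraries were left out. In oKO MII, 0 became 1 with no 2-fold threshold, in oKO 1C it was 0 to 1 when single libraries were left out, and in oKO E2C it became 1 without array weights and 0 to 2 when single libraries were left out. Between KD and NC, 0 became 1 after quantile normalization, 1 with no 2-fold threshold and 0 to 1 when single libraries were left out. In the control step from FGO to MII, 1 became 3 after scaling, 4 after quantile normalization, 7 with no 2-fold threshold and 1 to 2 with single libraries left out. From MII to 1C, 1 became 2 with a pseudocount of 0.1, 0 with a pseudocount of 5, 0 with a minimum of 5 FPKM, 2 after scaling, 4 with no 2-fold threshold and 1 to 2 with single libraries left out. From 1C to E2C, 2 became 4 with a pseudocount of 0.1, 1 with a pseudocount of 5, 1 with a minimum of 5 FPKM, 1 after scaling, 1 after quantile normalization, 6 with no 2-fold threshold and 1 to 3 with single libraries left out. From E2C to L2C, 5 became 6 with a pseudocount of 0.1, 3 with a pseudocount of 5, 4 with a minimum of 5 FPKM, 6 after scaling, 6 after quantile normalization, 7 with no 2-fold threshold and 5 to 6 with single libraries left out. Between NC and floxed controls, 3 became 2 with either other pseudocount and 2 to 3 with single libraries left out. For the oKO effect in L2C minus that in E2C, 3 became 2 with a pseudocount of 5, 2 with a minimum of 5 FPKM, 1 after scaling, 1 after quantile normalization, 5 without array weights, 4 in a fit of the compared libraries alone, 4 with no 2-fold threshold and 2 to 5 with single libraries left out. For the oKO effect minus the KD effect, 4 became 3 with no filter, 0 after scaling, 1 after quantile normalization, 5 with no 2-fold threshold, 5 with the genotype labels and 2 to 6 with single libraries left out. The cause of these moves was not tested, except that dropping the 2-fold threshold can only add calls.

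Whether replicate numbers pair the libraries is not known. Deviations of same-numbered libraries from their group means correlated at -0.22 in FGO, -0.02 in MII and 0.21 in 1C. In E2C, L2C and the injected embryos the values were 0.09, -0.01 and -0.14. A single value for each collection cannot exclude that same-numbered libraries were handled together. With the replicate number as a block, 5 members in place of 3 were called for L2C minus E2C and no other count of members moved, and over all genes 3671 in place of 3675 were called in oKO L2C, 1107 in place of 1249 between KD and NC and 1803 in place of 2154 for the oKO effect minus the KD effect. After scaling the count over all genes was 2577 in oKO L2C, 191 in place of 269 in FGO, 2600 in place of 3656 from 1C to E2C, 2225 in place of 2888 for L2C minus E2C and 1055 in place of 2154 for the oKO effect minus the KD effect, while it was higher in oKO E2C (785 in place of 678), between KD and NC (1397 in place of 1249) and between NC and floxed controls (1912 in place of 1811). Depth being unknown, low members such as Cdkn1a in oocytes, Aen and Ccng1 have no known counting precision.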
